A study of Homo sapiens with 15 samples.

Results

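ATP-binding cassette (ABC) transporter genes were examined in HCC1954, an established breast cancer line of human origin with HER2 amplification, and in brain-tropic cells derived from it, whose derivation the labels do not describe further. A member was any gene symbol made of ABC, a subfamily letter from A to G and a number that stood in both deposited tables. The rule gave 44 of 19845 names, and 31 of the 44 reached a normalized count of at least 1 in 3 or more of the 15 libraries. Detected members came to 8 of 12 in subfamily A, 7 of 9 in B, 7 of 12 in C, 3 of 4 in D, 1 of 1 in E, 3 of 3 in F and 2 of 3 in G. The 13 symbols below this level were ABCA6, ABCA8, ABCA9, ABCA10, ABCB4, ABCB5, ABCC8, ABCC9, ABCC11, ABCC12, ABCC13, ABCD2 and ABCG4.

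The libraries formed 4 groups of brain-tropic or parental cells: metachronous metastasis cells (M-BM, 4 libraries), latent or residual cells (Lat, 4), synchronous metastasis cells (S-BM, 4) and the parental line (Pa, 3). All groups share the HCC1954 background, are described as HER2+, were grown in R3F medium, and had 1 M cells kept overnight in 1 ml before RNA was taken, with no drug or engineered allele named. Cells of the 3 brain groups were therefore measured in culture and not in the brain. Whether replicate libraries stand for independent cultures or animals is not stated in the labels; each p-value therefore reflects only how far these libraries scatter, part of which may be technical. In bulk RNA, fewer cells that express a gene and less of its RNA per cell cannot be told apart.

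ABC proteins bind and hydrolyse ATP on cytosolic nucleotide-binding domains, and most use that energy to move lipids, metabolites or drugs across a membrane. Members of subfamilies B, C and G include the drug efflux pumps, which sit in the plasma membrane and lower the amount of drug in a cell. ABCG2, also called breast cancer resistance protein, works as a homodimer, exports drugs such as topotecan and mitoxantrone, and is known at the blood-brain barrier and as the exporter of Hoechst dye that defines side-population cells. Subfamilies E and F carry no membrane-spanning part and act on ribosomes.

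The promoter letters are shown for ABCG2, ABCC2 and ABCA5, the 3 members with the largest called rise in Lat over S-BM. Each run is the 250 bases before the start in the RefSeq table of GRCh38.p14, read 5′ to 3′ on the gene's strand; capitals mark an XRE core (GCGTG) or a GC box (GGGCGG) on either strand.
ABCG2, chr4:88231627-88231876, minus strand: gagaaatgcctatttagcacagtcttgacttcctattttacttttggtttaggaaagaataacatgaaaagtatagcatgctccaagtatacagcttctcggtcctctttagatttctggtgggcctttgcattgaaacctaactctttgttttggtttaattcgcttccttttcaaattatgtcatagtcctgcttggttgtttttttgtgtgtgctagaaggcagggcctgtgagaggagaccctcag
ABCC2, chr10:99782390-99782639, plus strand: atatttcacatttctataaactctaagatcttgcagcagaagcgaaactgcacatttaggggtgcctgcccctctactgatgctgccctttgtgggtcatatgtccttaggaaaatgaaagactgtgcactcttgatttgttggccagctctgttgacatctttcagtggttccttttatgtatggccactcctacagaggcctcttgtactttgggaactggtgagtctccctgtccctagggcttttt
ABCA5, chr17:69327134-69327383, minus strand: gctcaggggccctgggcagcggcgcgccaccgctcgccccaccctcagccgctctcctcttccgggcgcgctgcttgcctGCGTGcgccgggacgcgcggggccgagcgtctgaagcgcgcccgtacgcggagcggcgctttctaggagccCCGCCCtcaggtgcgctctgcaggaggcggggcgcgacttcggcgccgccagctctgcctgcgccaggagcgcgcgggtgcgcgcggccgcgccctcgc
The ABCG2 window holds 40.0% G or C and 2 CpG sites, the ABCC2 window 45.6% and 1, and the ABCA5 window 79.2% and 42, against medians of 58.0% and 11 over all 27305 promoters in the table. Neither the ABCG2 nor the ABCC2 window holds GCGTG, TGACNNNGC (an antioxidant response element core), GGGCGG or CACGTG (an E-box), each searched on both strands, and the ABCA5 window holds 1 XRE core and, apart from it, 1 GC box. Among the 25 detected members with a matching promoter, 12 hold GCGTG, 6 TGACNNNGC, 15 GGGCGG and 3 CACGTG. Over all promoters the shares are 31.9%, 11%, 42.3% and 6.49% in the same order of motifs. These matches describe the letters of 1 window per gene. The ABCG2 window lies upstream of the farther of 2 starts that GENCODE v29 lists for the gene on chromosome 4, at 88231322 and 88158912, and the deposited values do not separate transcripts from either start.

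Recovered reads ran from 13.25 to 21.84 M per library, and 3 reads correspond to a normalized count of 0.136 to 0.225, a limit that covers counting error only. All 9 HCC1954 identity markers reached 1 in every group. Their sum lay at 9575 to 13140 in M-BM, 9472 to 11300 in Lat, 6996 to 11850 in S-BM and 12820 to 13730 in Pa. S-BM 3 and S-BM 4 went against the HER2+ label in part, with ERBB2 at 353 and 367 against 4109 and 4642 in S-BM 1 and S-BM 2. Results of ABC members that rest on S-BM are therefore given without them where this matters. Neighbouring genes and the other gene lists are given only with all S-BM libraries. S-BM 3 and S-BM 4 were also the pair with the smallest difference. Its squared deviation was 3.59 times that of counting noise, so no library was taken as a repeat of another. The 3 astrocyte markers in the tables stayed under 1 in every library, as did MOG of oligodendrocytes and SNAP25 of neurons. The oligodendrocyte marker MBP was high in every library, from 75.5 in S-BM 2 to 150 in M-BM 2, and 103 to 109 in Pa. The neuron marker SYT1 exceeded 1 in all M-BM, Lat and S-BM libraries except S-BM 2, at 0.304. It reached 4.30 in Lat 3 and at most 0.655 in Pa. The part of such cells in the results was not tested. The 3 endothelial markers in the tables summed to 4.67 to 11.2 in M-BM, 6.90 to 7.64 in Lat, 13.3 to 26.8 in S-BM and 20.2 to 28.1 in Pa. That sum reached its highest value in Pa, the parental line. ABCB1 and ABCG2 are also endothelial genes, and the part of such cells in the results was not tested. Lat 3 stood apart from the other Lat libraries, with COL1A1 at 20.7 against 5.93 to 7.11 and CD68 at 30.9 against 8.64 to 10.4. Its pairs had squared deviations of 40.7 to 47.0 times counting noise, against 4.13 to 14.5 in the other Lat pairs. Other markers listed with COL1A1 and CD68 did not set Lat 3 apart. COL1A2 stood at 0.104 in Lat 3 and 0.139 in Lat 4, and PDGFRB at 0.569 in Lat 3 and 0.628 in Lat 4. PTPRC stood at 0.104 in Lat 3 and 0.103 in Lat 1, and AIF1 at 0 in Lat 3. CD68 also reached 26.1 in S-BM 1. The part of the Lat 3 difference in the results was not tested.

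Against S-BM cells, ABC genes passed the test in both directions in the latent and metachronous groups. In Lat, 23 of the 31 members passed an adjusted p of 0.05 in limma, 12 higher and 11 lower, where 57.8% of all 13021 genes tested passed (29.0% higher and 28.9% lower). In M-BM, 17 passed, 9 higher and 8 lower, where 50.9% of all genes passed (25.5% higher and 25.4% lower). ABCA1, ABCB1 and ABCC3 reached 1 in no S-BM library and ABCB11 and ABCC6 in no M-BM or Lat library, so these 5 entered the fit only through the groups where they are high and had to differ; their values are given below without a test. Of the other 26 members, 6 were higher and 6 lower in M-BM and 9 higher and 9 lower in Lat, a count chosen after seeing the data. Changes of 2-fold or more were called for 7 higher and 3 lower members in Lat (7.13% and 8.71% of all genes). In M-BM they were called for 6 higher and 2 lower (5.37% and 6.5%). These counts still hold members that had to differ, namely ABCA1, ABCB1, ABCC3 and ABCB11 in Lat, and ABCA1 and ABCC3 in M-BM. The Lat and S-BM libraries did not overlap for 22 members (52.6% of all genes). The M-BM and S-BM libraries did not overlap for 16 (44.9%). All 5 members that had to differ are in both of these counts, so the counts cannot be read against the shares. Without Lat 3, 23 members were called in Lat, where 3628 genes were higher and 3583 lower of all 12965 tested. Both comparisons use the same S-BM libraries, so their values stand side by side and are not independent. Without S-BM 3 and S-BM 4, 29 members could be tested (ABCB11 and ABCC6 were then too low). Of these, 9 were higher and 7 lower in M-BM and 10 higher and 9 lower in Lat. The higher counts include ABCA1, ABCB1 and ABCC3, which had to differ. Of all 12860 genes in that fit, 2721 were higher and 2830 lower in M-BM, and 3194 higher and 3274 lower in Lat.

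**Figure D1:**
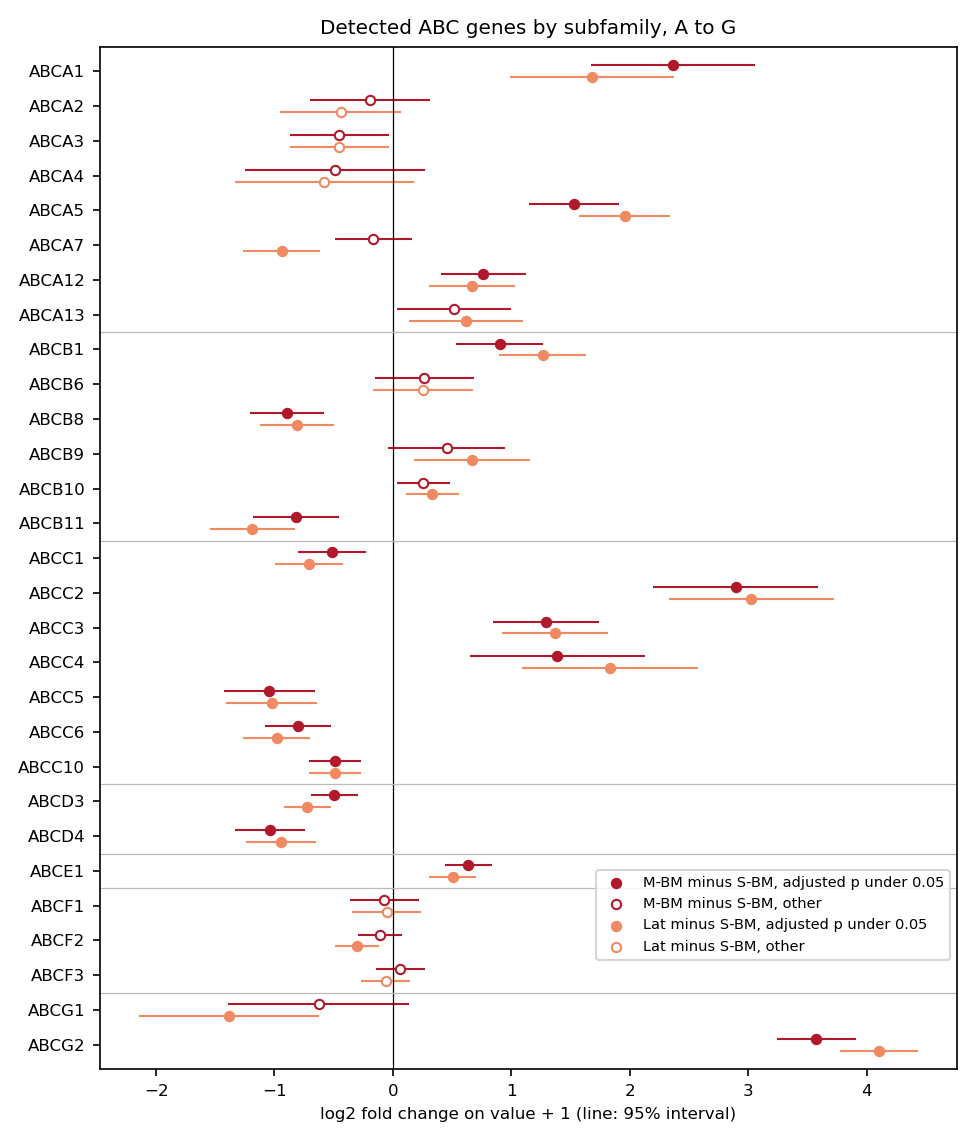
Log2 fold change on value + 1 (x axis) of 29 of the 31 detected ABC genes by subfamily (y axis) in M-BM and in Lat, each against S-BM, with 95% intervals from limma; filled points have an adjusted p under 0.05. ABCG2 lies farthest to the right in both comparisons, at 3.58 in M-BM and 4.10 in Lat, and ABCG1 farthest to the left in Lat at −1.38. ABCA1, ABCB1, ABCC3, ABCB11 and ABCC6 had to differ, so their filled points are not to be read as tests.

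M-BM and Lat were close to each other. None of the 31 members passed in M-BM against Lat in limma, where 0.207% of all genes did (0.108% higher and 0.0998% lower, and 0.0922% and 0.0538% by 2-fold or more). Of the members, edgeR called none and DESeq2 called 2. Over all genes, edgeR called 12 higher and 5 lower, and DESeq2 136 higher and 93 lower. ABCA7 and ABCF2 were higher in all M-BM than in all Lat libraries, and 7.09% of all genes showed such separation in either direction. ABCA7, which moves phospholipids and is a risk gene for Alzheimer disease, had an adjusted p of 0.0622 for a log2 fold change of 0.775 (SE 0.15). Leaving out M-BM 1 brought ABCA7 past the threshold (0.83, adjusted p = 0.0445), as did DESeq2 (0.92, adjusted p = 0.00262).

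ABCG2 was high in every M-BM and Lat library and low in every S-BM and Pa library. The gene (GRCh38 chromosome 4, 88090264 to 88231626) had normalized counts of 55.9, 57.3, 74.5 and 54.7 in M-BM, 92.0, 93.8, 65.6 and 101 in Lat, 5.36, 3.49, 3.97 and 3.84 in S-BM, and 7.21, 6.68 and 3.38 in Pa. The lowest M-BM or Lat library stood 7.58 times above the highest S-BM or Pa library. Group means were 60.6 ± 9.32 in M-BM, 88.1 ± 15.5 in Lat and 4.17 ± 0.819 in S-BM (SD, n = 4 each), and 5.76 ± 2.07 in Pa (n = 3). In limma the log2 fold change against S-BM was 3.58 in M-BM (SE 0.15, adjusted p = 4.59e-09) and 4.10 in Lat (SE 0.15, adjusted p = 8.92e-10), or 11.9-fold in M-BM and 17.2-fold in Lat on value + 1. The ratio of means, which carries no added constant, was 14.6 for M-BM and 21.2 for Lat. Without S-BM 3 and S-BM 4 the log2 fold change was 3.52 in M-BM and 4.04 in Lat. Between the groups with high levels, M-BM lay below Lat by a log2 fold change of −0.53 (95% interval −0.86 to −0.19), which did not pass in limma (adjusted p = 0.217) and passed in DESeq2 (adjusted p = 0.0472), and M-BM 3 at 74.5 exceeded Lat 3 at 65.6.

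**Figure D2:**
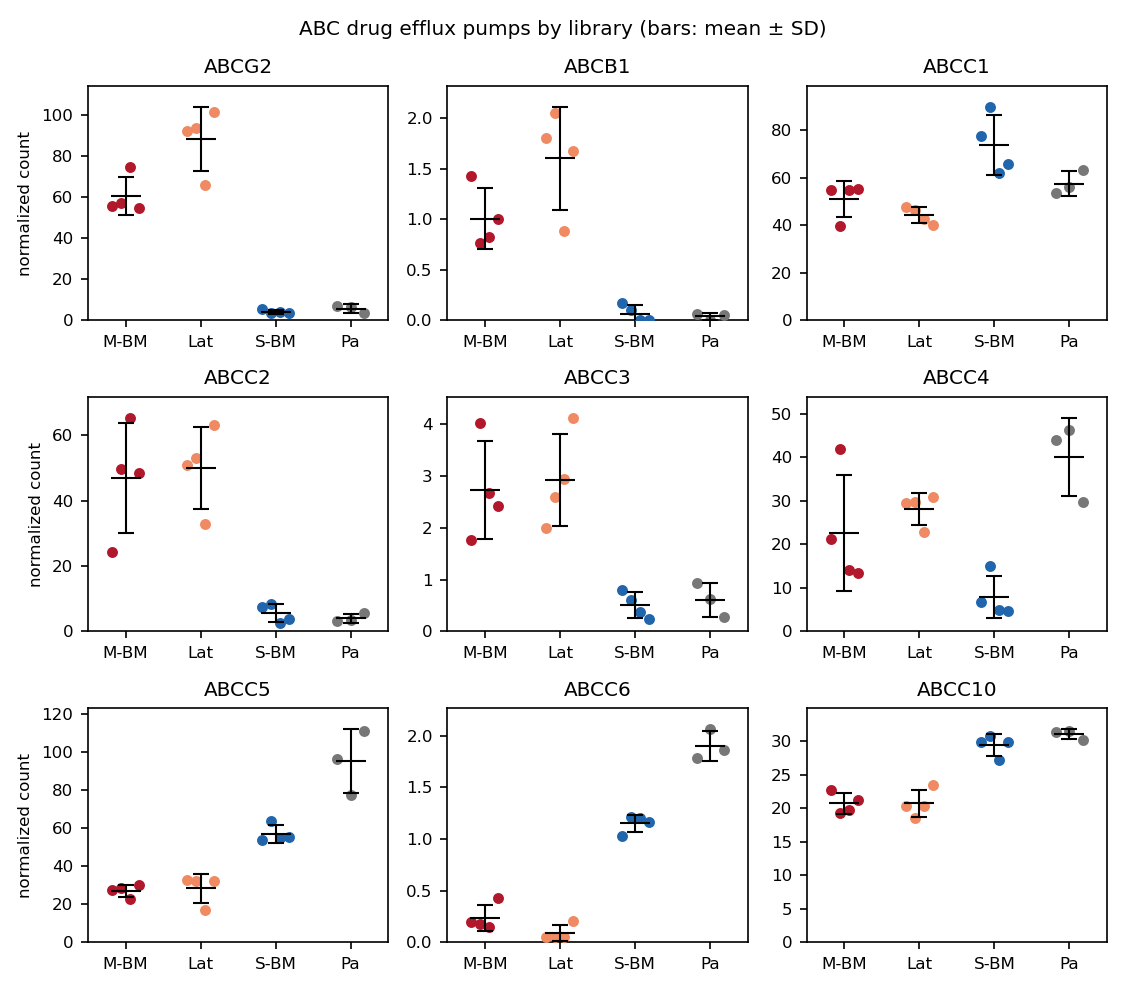
Normalized count (y axis, from 0) of the 9 detected drug efflux pumps in each library, by group (x axis), with the mean and SD as bars. ABCG2, ABCB1, ABCC2 and ABCC3 are high in M-BM and Lat and low in S-BM and Pa, while ABCC5, ABCC6 and ABCC10 show the opposite order and ABCC4 is high in Pa as well.

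Of the 11 drug efflux genes in the tables, ABCB5 and ABCC11 fell under the detection rule and the other 9 were tested. ABCB1, ABCC3 and ABCC6 are among the 5 that had to differ; of the 6 left, 3 passed as higher and 3 as lower in each comparison with S-BM, where 50.9% of all genes passed in M-BM and 57.8% in Lat. Without S-BM 3 and S-BM 4, 8 pumps could be tested. Of these, 4 were higher and 3 lower in M-BM and 5 higher and 3 lower in Lat, ABCB1 and ABCC3 included. Of all 12860 genes in that fit, 2721 were higher and 2830 lower in M-BM, and 3194 higher and 3274 lower in Lat. Besides ABCG2 the pumps with higher values were ABCB1, ABCC2, ABCC3 and ABCC4.

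ABCB1, the P-glycoprotein that exports taxanes and anthracyclines, was near 0 in S-BM and Pa. Its normalized counts were 1.43, 0.768, 0.827 and 0.999 in M-BM, 1.80, 2.05, 0.880 and 1.67 in Lat, 0.171, 0.101, 0 and 0 in S-BM, and 0.0662, 0 and 0.0546 in Pa. All M-BM and Lat libraries lay above all others, at a low level, and 1 M-BM and 3 Lat libraries reached 1. The log2 fold change on value + 1 was 0.90 in M-BM (SE 0.17) and 1.26 in Lat (SE 0.17), given as a description since the gene entered the fit through these groups, and the added constant holds these down: the ratios of means were 14.8 in M-BM and 23.5 in Lat. ABCB1 shares 84898 bases with RUNDC3B, which averaged 2.58 in M-BM, 3.29 in Lat, 1.24 in S-BM and 2.30 in Pa, and without strand the reads of the overlapping genes cannot be told apart.

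ABCC2 (MRP2) exports glutathione and glucuronide conjugates, in liver into bile. It stood at 24.3, 49.8, 65.2 and 48.5 in M-BM, 50.8, 53.2, 32.7 and 63.0 in Lat, 7.41, 8.25, 2.70 and 3.78 in S-BM, and 3.11, 3.44 and 5.51 in Pa. M-BM and Lat libraries again lay above every S-BM and Pa library. The log2 fold change was 2.89 in M-BM (SE 0.32, adjusted p = 1.41e-05) and 3.03 in Lat (SE 0.32, adjusted p = 4.98e-06). Without S-BM 3 and S-BM 4, the 2 lowest S-BM libraries, that of ABCC2 was smaller, at 2.36 in M-BM (adjusted p = 0.00024) and 2.49 in Lat (adjusted p = 8.98e-05). ABCC3 (MRP3), which exports glucuronides across the basolateral membrane, showed the same order at a lower level, with 1.77, 4.02, 2.68 and 2.43 in M-BM, 2.0, 2.60, 2.95 and 4.11 in Lat, 0.798, 0.607, 0.375 and 0.233 in S-BM, and 0.926, 0.625 and 0.273 in Pa. Its log2 fold change was 1.29 in M-BM and 1.37 in Lat, and the ratios of means were 5.41 in M-BM and 5.80 in Lat; it entered the fit only through M-BM and Lat, so no test is given.

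ABCC4 (MRP4), an exporter of cyclic nucleotides, nucleotide analogues and prostanoids, differed from these pumps in Pa. Its normalized counts were 21.1, 41.9, 14 and 13.4 in M-BM, 29.4, 29.6, 22.8 and 30.8 in Lat, 6.84, 15, 5.02 and 4.77 in S-BM, and 43.9, 46.3 and 29.8 in Pa. Lat stood above S-BM in every library, M-BM 3 and M-BM 4 overlapped S-BM 2, and Pa reached the highest values. The log2 fold change was 1.39 in M-BM (SE 0.35, adjusted p = 0.00437) and 1.83 in Lat (SE 0.35, adjusted p = 0.000481). Without S-BM 3 and S-BM 4, that of M-BM was 0.93 and did not pass (adjusted p = 0.0708), and that of Lat was 1.37 (adjusted p = 0.011).

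The pumps with lower values were ABCC1, ABCC5, ABCC6 and ABCC10. ABCC1 (MRP1), a broad exporter of glutathione conjugates and anthracyclines, had 54.7, 39.7, 54.7 and 55.2 in M-BM, 47.7, 46.4, 42.8 and 40.1 in Lat, 77.5, 89.6, 61.9 and 65.7 in S-BM, and 53.5, 56.0 and 63.3 in Pa. S-BM had the highest mean, all M-BM and Lat libraries lay below all S-BM libraries, and Pa overlapped both M-BM and S-BM. ABCC1 fell by 0.52 in M-BM (SE 0.13, adjusted p = 0.00551) and by 0.71 in Lat (SE 0.13, adjusted p = 0.000473) on the log2 scale against S-BM.

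ABCC5 (MRP5), which exports cyclic GMP and antifolates, was highest in Pa. It had 27.4, 28.7, 22.6 and 30.0 in M-BM, 32.6, 32.2, 16.8 and 32.0 in Lat, 53.9, 64.0, 54.7 and 55.3 in S-BM, and 96.6, 77.6 and 111 in Pa. The 3 levels, M-BM with Lat, S-BM and Pa, did not overlap. Against S-BM it fell by 1.04 in M-BM (SE 0.18, adjusted p = 0.000327) and by 1.02 in Lat (SE 0.18, adjusted p = 0.000275) on the log2 scale.

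ABCC6, a liver-enriched member needed for ATP release and the suppression of tissue calcification, and ABCC10 (MRP7), a taxane exporter, followed the same order. ABCC6 stood at 0.197, 0.181, 0.146 and 0.428 in M-BM, 0.0514, 0.0554, 0.0518 and 0.209 in Lat, 1.03, 1.21, 1.20 and 1.16 in S-BM, and 1.79, 2.06 and 1.86 in Pa. ABCC10 stood at 22.7, 19.2, 19.8 and 21.2 in M-BM, 20.4, 18.6, 20.4 and 23.5 in Lat, 29.9, 30.8, 27.1 and 29.9 in S-BM, and 31.4, 31.5 and 30.2 in Pa. For both, every M-BM and Lat library lay below every S-BM and Pa library. ABCC6, which entered the fit only through S-BM, had log2 fold changes of −0.80 in M-BM and −0.98 in Lat, with ratios of means of 0.207 in M-BM and 0.0799 in Lat, and no test is given. ABCC10 changed by −0.49 in M-BM (adjusted p = 0.00137) and in Lat (adjusted p = 0.00101). ABCC6 has near-identical pseudogene copies, of which ABCC6P1 was at or near 0 in all libraries, so its level is uncertain.

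Set side by side per kilobase of coding length, ABCG2 took the leading place among the pumps in M-BM and Lat and a minor one elsewhere. Its share of the summed level of the 9 pumps was 45.1%, 41.0%, 48.7% and 42.0% in M-BM, 52.8%, 53.3%, 51.5% and 53.9% in Lat, 6.40%, 3.63%, 5.55% and 5.13% in S-BM, and 6.43%, 6.35% and 3.01% in Pa. ABCC1 held 9.13% to 18.9% over the M-BM and Lat libraries, 37.0% to 39.8% over the S-BM libraries and 20.4% to 24.1% over Pa. The summed level per kilobase ran from 63.1 to 77.9 in M-BM, 64.9 to 95.6 in Lat, 36.4 to 49.0 in S-BM and 53.6 to 57.2 in Pa. With ABCG2 left out of the sum, these ranges became 34.7 to 42.0 in M-BM, 31.5 to 44.1 in Lat, 34.4 to 47.2 in S-BM and 50.2 to 55.5 in Pa, so that M-BM, Lat and S-BM overlapped and Pa stood highest. Among all 31 detected members, ABCG2 ranked 5 of 31 per kilobase in M-BM and Lat and 20 of 31 in S-BM and Pa. Pa values come from a table scaled on its own. Coding length leaves out untranslated parts, from which counted reads may also come, so shares and ranks depend on this choice. ABCG2 has the shortest coding length of the 9 pumps, 1965 bases against 3840 to 4635. Undivided, the M-BM means were 60.6 for ABCG2, 51.1 for ABCC1 and 46.9 for ABCC2. In Lat they were 88.1 for ABCG2, 44.3 for ABCC1 and 49.9 for ABCC2.

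**Figure D3:**
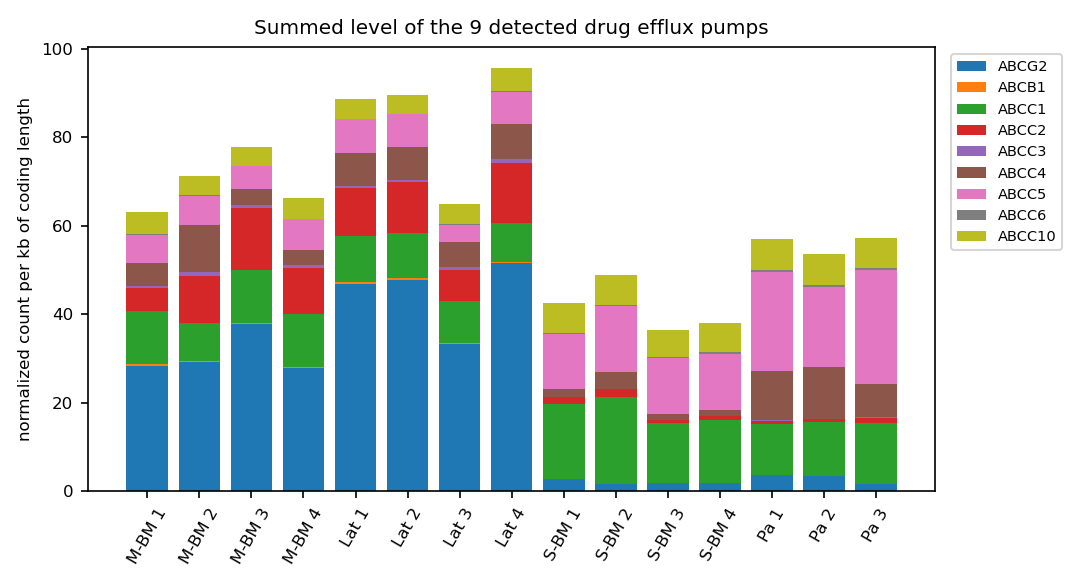
Normalized count per kilobase of coding length (y axis, from 0), stacked over the 9 detected drug efflux pumps, for each of the 15 libraries (x axis). ABCG2, the lowest block, makes up 41.0% to 53.9% of the bar in M-BM and Lat libraries and 3.01% to 6.43% in S-BM and Pa libraries.

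Of 8 tested genes for sterol and phospholipid transport other than ABCA1, 2 were higher and none lower in M-BM and 3 higher and 2 lower in Lat, where 25.5% of all genes were higher and 25.4% lower in M-BM, and 29.0% and 28.9% in Lat. ABCA1, which loads cholesterol and phospholipid onto apolipoprotein A-I, was nearly absent from S-BM. It had 4.23, 3.80, 9.73 and 7.71 in M-BM, 2.0, 2.22, 7.45 and 3.35 in Lat, 0.0570, 0.405, 0.375 and 0.640 in S-BM, and 4.57, 7.12 and 4.53 in Pa. S-BM was thus the group that stood apart, and Pa lay within the range of M-BM. It entered the fit only through M-BM and Lat, so no test is given; the log2 fold change was 2.36 in M-BM (SE 0.32) and 1.68 in Lat (SE 0.32), with ratios of means of 17.2 in M-BM and 10.2 in Lat.

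ABCA5, a lysosomal and endosomal member linked to sterol handling, had 22.2, 30.2, 33.0 and 28.6 in M-BM, 37.0, 37.4, 53.7 and 28.6 in Lat, 8.60, 11.3, 7.95 and 8.85 in S-BM, and 18.2, 20.2 and 18.6 in Pa. M-BM and Lat were highest and S-BM lowest, with Pa between them and no overlap. The log2 fold change was 1.53 in M-BM (SE 0.18, adjusted p = 1.84e-05) and 1.96 in Lat (SE 0.18, adjusted p = 1.41e-06). ABCA10, its neighbour in a cluster of A-subfamily genes on chromosome 17, stayed under the detection rule at 0.345 to 0.714 in M-BM, 0.349 to 0.924 in Lat, 0 to 0.114 in S-BM and 0.0625 to 0.198 in Pa, and the pair overlaps by 538 bases. ABCA12, a keratinocyte lipid transporter, averaged 185.5 ± 44.5 in M-BM, 170.4 ± 22.6 in Lat, 107 ± 12.5 in S-BM and 77.6 ± 6.38 in Pa, and was called higher in M-BM (0.76, adjusted p = 0.00195, with overlapping libraries) and in Lat (0.67, adjusted p = 0.00381). ABCA13 was called in Lat alone among these comparisons (0.62, adjusted p = 0.0301) with overlapping libraries, and lost the call in the fit that omits S-BM 3 and S-BM 4 (0.49, adjusted p = 0.171).

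ABCG1, which moves cholesterol to high-density lipoprotein, was the sterol exporter that fell. It had 1.13, 4.70, 3.41 and 3.62 in M-BM, 0.616, 1.11, 2.02 and 1.95 in Lat, 3.42, 2.73, 7.42 and 9.14 in S-BM, and 2.32, 2.0 and 2.13 in Pa. The highest values were those of S-BM 3 and S-BM 4. The log2 fold change was −0.63 in M-BM (adjusted p = 0.156) and −1.38 in Lat (SE 0.36, adjusted p = 0.00443). Without S-BM 3 and S-BM 4 that of Lat was −0.79 and did not pass (adjusted p = 0.0844). ABCA7 had 5.81, 6.23, 7.74 and 7.18 in M-BM, 4.11, 3.05, 3.57 and 3.35 in Lat, 6.21, 6.68, 8.92 and 9.14 in S-BM, and 8.73, 12 and 10.5 in Pa. Lat was the lowest group, below every other library. ABCA7 fell by 0.94 in Lat against S-BM on the log2 scale (SE 0.15, adjusted p = 0.00013), and in M-BM it stood at −0.17 (adjusted p = 0.377). ABCA2, ABCA3 and ABCA4 passed in neither comparison, with log2 fold changes of −0.58 to −0.19.

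Among the 4 mitochondrial half-transporters, 1 was lower in M-BM (median 0.04) and 1 was higher and 1 lower in Lat (median 0.02). Over all genes, 25.5% were higher and 25.4% lower in M-BM, and 29.0% higher and 28.9% lower in Lat. ABCB8, a subunit of a mitochondrial potassium channel complex also linked to iron export, had 16.4, 16.9, 12.4 and 14.1 in M-BM, 16.7, 15.6, 13.7 and 17.4 in Lat, 28.3, 21.8, 31.1 and 34.3 in S-BM, and 23.7, 27.2 and 24.6 in Pa. All M-BM and Lat libraries lay below all others. ABCB8 fell by 0.90 in M-BM (SE 0.15, adjusted p = 0.000225) and by 0.81 in Lat (SE 0.15, adjusted p = 0.00034) on the log2 scale. ABCB10, an inner-membrane member needed for haem synthesis, was higher in Lat (0.33, adjusted p = 0.014) and missed the threshold in M-BM (0.26, adjusted p = 0.0539), although both groups lay above all S-BM libraries. Leaving out S-BM 3 and S-BM 4 kept the size in Lat and lost the call (0.33, adjusted p = 0.0595). ABCB6, a porphyrin transporter, did not pass, at 0.27 in M-BM and 0.25 in Lat on the log2 scale.

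The lysosomal members moved apart. ABCD4, which works with LMBRD1 in releasing cobalamin from lysosomes, had 7.04, 4.74, 4.72 and 6.75 in M-BM, 6.88, 6.31, 5.64 and 5.93 in Lat, 12.3, 12.9, 13.2 and 12.9 in S-BM, and 16.1, 16.2 and 15.6 in Pa. M-BM and Lat were lowest, S-BM intermediate and Pa highest, without overlap. ABCD4 fell by 1.04 in M-BM (SE 0.14, adjusted p = 4.89e-05) and by 0.94 in Lat (SE 0.14, adjusted p = 6.31e-05) on the log2 scale. ABCB9, a lysosomal peptide transporter, averaged 17.1 ± 3.15 in M-BM, 19.7 ± 1.20 in Lat, 12.8 ± 5.31 in S-BM and 13.6 ± 1.18 in Pa. It was called higher in Lat (0.67, adjusted p = 0.0226) and not in M-BM (0.45, adjusted p = 0.113). Its S-BM spread came from S-BM 3 and S-BM 4, at 17.5 and 17.2, and without them it was higher in M-BM (0.95, adjusted p = 0.00113) as well as in Lat (1.16, adjusted p = 0.000205).

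In peroxisomes, ABCD3, which imports branched-chain and bile acid precursors, averaged 132 ± 12.1 in M-BM, 113 ± 9.94 in Lat, 187 ± 13.2 in S-BM and 184 ± 9.08 in Pa. It fell in M-BM (−0.50, adjusted p = 0.000598) and in Lat (−0.72, adjusted p = 2.07e-05). ABCD2 was under the detection rule.

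Among the ribosome ATPases, ABCE1, which splits terminated ribosomes, had the highest level of all members per kilobase in M-BM, at 194.8. It averaged 350.1 ± 21.0 in M-BM, 319 ± 25.4 in Lat, 225 ± 20.7 in S-BM and 144 ± 3.48 in Pa, and rose in M-BM (0.64, SE 0.09, adjusted p = 8.06e-05) and in Lat (0.50, SE 0.09, adjusted p = 0.000354). Pa was the lowest group. ABCF2 fell in Lat (−0.30, adjusted p = 0.00836) and not in M-BM (−0.11, adjusted p = 0.323). ABCF1 and ABCF3, regulators of translation, passed in neither comparison, with log2 fold changes of −0.07 to 0.06. ABCF1 was called lower in both groups without S-BM 3 and S-BM 4, at −0.35 in M-BM (adjusted p = 0.0257) and −0.33 in Lat (adjusted p = 0.0288).

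ABCB11, the bile salt export pump of hepatocytes, was detected at a low level. It had 0.689, 0.497, 0.243 and 0.714 in M-BM, 0.154, 0.277, 0.155 and 0.139 in Lat, 2.62, 1.57, 1.27 and 1.45 in S-BM, and 4.43, 3.25 and 2.68 in Pa. The order was Pa, S-BM, M-BM and Lat from high to low, with no overlap between S-BM and Pa or between S-BM and the other groups. Having entered the fit only through S-BM, it is given no test; its log2 fold change was −0.82 in M-BM (SE 0.17) and −1.19 in Lat (SE 0.17), and the ratios of means were 0.310 in M-BM and 0.105 in Lat. The potassium channel subunit ABCC9 reached 1.24 in Lat 3 and was at 0 in the other 11 libraries of the brain groups. Lat 3 also stood apart in COL1A1 and CD68, though not in the other markers listed with them. The part of this in the ABCC9 value was not tested.

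Pa stood in a separate table, so members were only set beside it as levels. Counted was a member whose libraries in a group all lay 2-fold or more above, or below, every Pa library on value + 1. In M-BM 3 members lay higher (ABCC2, ABCE1 and ABCG2; 4.34% of all detected genes did) and 3 lower (ABCB11, ABCC5 and ABCD4; 5.95%). In Lat the same 3 members lay higher (5.76%) and 5 lower, the 3 just named with ABCA4 and ABCC6 (8.62%). In S-BM none lay higher (0.379%) and 2 lower, ABCA1 and ABCA4 (1.06%). ABCB11 and ABCC6 reached 1 in no M-BM or Lat library, and ABCA1 in no S-BM library. These members were thus detected only through groups where they are high, so the counts of lower members cannot be read against the shares. ABCA4, the retinal N-retinylidene-phosphatidylethanolamine importer, averaged 1.67 ± 1.52 in M-BM, 1.42 ± 0.87 in Lat, 2.51 ± 0.98 in S-BM and 12.2 ± 3.16 in Pa. ABCE1 was not counted in Lat once Pa was scaled by 1.017, the median ratio over 9254 genes.

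Genes near ABCG2 on chromosome 4 were read in the same fit. Of the 8 neighbours on each side, 10 were tested, and PYURF and PIGY share a transcript and identical values, which leaves 9 distinct genes. In both M-BM and Lat, 7 of the 9 were higher and 1, HSD17B11, was lower than in S-BM, beside 25.5% of all genes higher in M-BM and 29.0% in Lat. HERC5, an interferon-induced ligase for ISG15, averaged 41.2 ± 5.08 in M-BM, 37.1 ± 6.29 in Lat, 1.43 ± 0.929 in S-BM and 6.87 ± 2.39 in Pa. Its log2 fold change was 4.18 in M-BM and 4.03 in Lat. PPM1K, a mitochondrial phosphatase, averaged 17.5 ± 3.55 in M-BM, 18.4 ± 1.24 in Lat, 6.24 ± 1.24 in S-BM and 8.70 ± 0.838 in Pa. HERC6, which lies between these 2 genes, did not pass (0.26 in M-BM and 0.20 in Lat). Beyond ABCG2 on the other side, PKD2, the polycystin-2 channel, averaged 34.5 ± 4.13 in M-BM, 34.2 ± 3.76 in Lat, 19.2 ± 1.02 in S-BM and 29.0 ± 4.82 in Pa. NUDT9, KLHL8 and HERC3, called higher than S-BM by 0.42 to 0.72 on the log2 scale, averaged 28.1, 63.6 and 41.7 in Pa, at or above at least one of the M-BM and Lat means. Around ABCC2, the other tested member called 4-fold or more, 4 of 12 tested neighbours were higher in M-BM and 5 in Lat, with none lower. ABCA1 also changed 4-fold or more, but it had to differ, so its choice rests on no test. Around it 5 of 12 tested neighbours were higher in M-BM and 6 in Lat, with none lower.

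**Figure D4:**
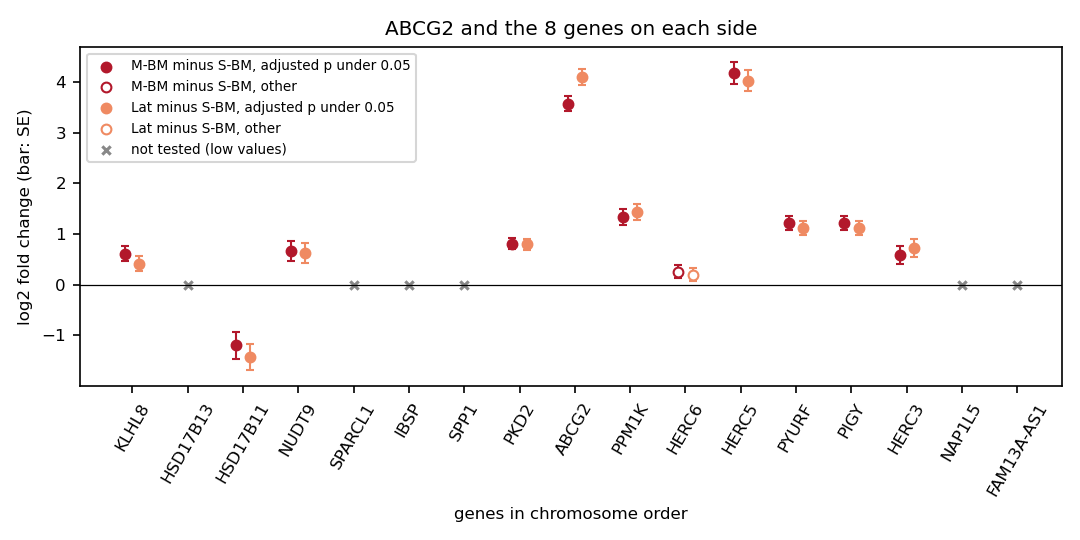
Log2 fold change against S-BM (y axis, with SE bars) of ABCG2 and the 8 genes on each side in chromosome order (x axis), in M-BM and in Lat; open points did not pass, and crosses, placed at 0, were too low to test. ABCG2 and HERC5 stand near 4, the intervening PPM1K at 1.34 in M-BM and 1.43 in Lat, and HERC6 at 0.26 in M-BM and 0.20 in Lat.

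Nuclear receptors and other transcription factors known to control ABC genes were called in both directions. Of 21 tested, 4 were higher and 7 lower in M-BM (25.5% and 25.4% of all genes) and 3 higher and 10 lower in Lat (29.0% and 28.9% of all genes), with medians of −0.17 in M-BM and −0.22 in Lat. PPARD averaged 12.6 in M-BM, 9.97 in Lat and 39.4 in S-BM (−1.61, adjusted p = 1.51e-05 in M-BM and −1.89, adjusted p = 2.22e-06 in Lat). SREBF1, the sterol-responsive factor of lipid synthesis, fell by 0.94 in M-BM and 1.01 in Lat. PPARG fell by 0.81 in M-BM and 0.94 in Lat, with libraries that overlap S-BM in both. ESR1, the oestrogen receptor that controls ABCG2 in breast cells, rose by 0.83 in M-BM (adjusted p = 0.00143) and by 1.07 in Lat (adjusted p = 0.000151), to 9.81 in M-BM and 11.8 in Lat against 5.26 in S-BM.

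Proteins that anchor pumps at the membrane or act on them gave 1 higher and 7 lower of 9 tested in each comparison, with medians of −0.73 in M-BM and −0.94 in Lat; of all genes 25.4% were lower in M-BM and 28.9% in Lat. Moesin (MSN), which ties membrane proteins to actin, averaged 394 in M-BM, 302 in Lat and 1092 in S-BM (−1.47 in M-BM and −1.84 in Lat). The scaffold SLC9A3R2 changed by −1.71 in M-BM and −2.53 in Lat, and its relative SLC9A3R1 by −1.02 in M-BM and −1.37 in Lat. The major vault protein MVP changed by −1.67 in M-BM and −1.96 in Lat. The kinase PIM1, which phosphorylates ABCG2, was the 1 gene of the list that rose, by 0.88 in M-BM and 1.09 in Lat.

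Of 29 conjugation and oxidation enzymes tested, which make or modify pump substrates, UGT1A10, UGT1A6 and UGT1A1 share the exons of 1 locus and were counted once, and CYP24A1 and SULT1A1 entered the fit without any S-BM library at 1. Of the 25 left, 6 were higher and 12 lower in M-BM (25.5% and 25.4% of all genes) and 5 higher and 16 lower in Lat (29.0% and 28.9% of all genes), with medians of −0.61 in M-BM and −0.85 in Lat; this way of counting was chosen after seeing the data. The lower counts still hold SULT2B1, which reached 1 in 4 S-BM libraries, 1 M-BM library and no Lat library. It thus passed the filter through S-BM, where it is high. Microsomal glutathione transferase MGST2 averaged 2.85 in M-BM, 2.09 in Lat and 11.9 in S-BM (−1.76 in M-BM and −2.07 in Lat), and glutathione transferase GSTT1 4.17 in M-BM, 3.06 in Lat and 13.4 in S-BM (−1.49 in M-BM and −1.83 in Lat). CYP1B1 fell by 1.63 on the log2 scale in M-BM. The carboxylesterase CES1, which activates or clears ester drugs, was higher, at 45.2 to 69.1 in M-BM and 38.3 to 79.0 in Lat against 4.73, 1.47, 0 and 0.0582 in S-BM. It reached 51.9 to 116 in Pa. SULT1A1, a phenol sulfotransferase, averaged 3.25 in M-BM and 0.394 in Lat (log2 fold change 1.55, with no test given for a gene that entered through its high group); it has near-identical relatives, so reads may be shared.

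Of 19 solute carriers and copper ATPases that bring drugs in or out, SLC15A2 and SLC47A1 entered the fit only through the side where they are high. Of the other 17, 4 were higher and 10 lower in M-BM (25.5% and 25.4% of all genes; list median −0.50) and 5 higher and 7 lower in Lat (29.0% and 28.9% of all genes; list median −0.39). The nucleoside carrier SLC29A2 averaged 5.94 in M-BM, 3.96 in Lat and 17.8 in S-BM (−1.46 in M-BM and −1.93 in Lat), and the prostaglandin carrier SLCO2A1 averaged 1.42 in M-BM, 1.15 in Lat and 8.66 in S-BM (−1.98 in M-BM and −2.15 in Lat). The copper pump ATP7A, tied to platinum resistance, fell by 1.60 in Lat. The drug and proton exchanger SLC47A1 stood at 0.689, 5.65, 4.82 and 3.52 in M-BM, at 0 to 0.725 in Lat and at 0 in all 4 S-BM libraries, and is given no test.

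Side-population and stem-cell markers, listed because ABCG2 is used with them, gave 4 higher and 1 lower of 8 tested in each comparison (25.5% and 25.4% of all genes in M-BM, 29.0% and 28.9% in Lat), with medians of 0.26 in M-BM and 0.40 in Lat. ALDH1A1, an aldehyde dehydrogenase that entered the fit only through M-BM and Lat, is left out of these counts; its log2 fold change was 1.27 in M-BM and 0.83 in Lat. Integrin ITGA6 rose by 1.35 in M-BM and 1.30 in Lat, and PROM1 by 0.92 in both, with overlapping libraries. CD24, a glycoprotein that is low on cells with stem-like surface profiles in breast cancer, averaged 797 in M-BM, 680.0 in Lat and 2516 in S-BM (−1.66 in M-BM and −1.84 in Lat).

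Partners of the organelle members gave calls in both directions, to be read against all genes, of which 25.5% were higher and 25.4% lower in M-BM and 29.0% higher and 28.9% lower in Lat. Of 7 genes of lipid acceptors and sterol handling, 1 was higher and 3 lower in M-BM (median −0.27) and none higher and 4 lower in Lat (median −0.39). The lysosomal lipase LIPA fell by 1.01 in M-BM and 1.31 in Lat, and the lipoprotein receptor SCARB1 by 1.10 in M-BM and 1.06 in Lat. Of 13 haem and iron-sulfur genes, 6 were higher and 1 lower in M-BM (median 0.29) and 5 higher and 2 lower in Lat (median 0.22). The haem oxygenase HMOX1 rose by 1.00 in M-BM and 1.25 in Lat, and the cysteine desulfurase NFS1 by 0.75 in M-BM and 0.90 in Lat. ALAD of haem synthesis fell by 1.02 in M-BM and 0.87 in Lat. Of 11 peroxisome and cobalamin genes, 3 were higher and 4 lower in M-BM (median −0.03) and 2 higher and 5 lower in Lat (median −0.17). Among them LMBRD1, the partner of ABCD4, fell by 0.60 in M-BM and 0.68 in Lat, as ABCD4 did, and the import receptor PEX5 rose by 0.94 in M-BM and 0.82 in Lat. Of 9 ribosome recycling and initiation genes, 4 were higher and 1 lower in each comparison, with medians of 0.22 in M-BM and 0.18 in Lat. PELO, which acts with ABCE1 on stalled ribosomes, rose by 0.88 in M-BM and 0.93 in Lat, and the initiation factor subunit EIF2S2 by 1.12 in M-BM and 1.22 in Lat. The peptide pumps TAP1 and TAP2, ABC proteins outside the symbol rule, fell too, TAP1 by 0.80 in M-BM and 0.60 in Lat and TAP2 by 0.92 in M-BM and 0.76 in Lat. CFTR was too low to test.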

How the data were processed

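Total RNA had been extracted with an RNeasy kit and made into TruSeq RNA v2 libraries, which keep no strand, per the labels' protocols. Bowtie 0.12.2 and the build GRCh38 are named in the submitters' processing notes. Counter, annotation and normalization were not given in the sources used here. Deposited values are a signal, namely normalized counts per gene, in 1 table for M-BM, Lat and S-BM and another for Pa. In each column 100% of values were whole multiples of 1 step within 0.05 reads, so reads could be recovered.

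M-BM, Lat and S-BM were fitted together in limma 3.58.1 (R 4.3.3) on log2(value + 1), with a variance trend, for genes at 1 or more in at least 3 of the 12 libraries. P-values are two-sided and were adjusted by Benjamini-Hochberg over all 13021 genes, with 0.05 as threshold. Pa entered no test. The members and gene lists were chosen with earlier results of these data known. Library values are given for the detected drug efflux pumps and for members with the 6 largest called changes per direction and comparison, and up to 4 called genes are named per other list; PIM1 was added with its values known. On simulated data for Lat against S-BM with 12836 genes the fit recovered 14%, 88% and 100% of 50 genes changed by 1.5-fold, 2-fold and 4-fold. Few genes were changed in the simulation and its dispersion was fixed, whereas 57.8% of all genes passed in Lat against S-BM. The simulated shares therefore do not give the recovery in the data.

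Coding length was the longest coding sequence in GENCODE v29, in place of the protein table named in the plan, which was not used here. Same-numbered libraries had residual correlations of −0.266 to 0.301, over 0.1 in 4 of 12 pairs, so numbers were not taken as pairs. Alternatives covered filters, pseudocounts, quantile normalization, the replicate number as a block, libraries left out, and edgeR 4.0.16 and DESeq2 1.42.0 on recovered reads. ABCG5 and ABCG8 were not analysed here, and single values of 2 detected members are not reported here.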

Additional observations from a re-analysis of the deposited data

Results flagged for a closer look

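A library was marked when its gap to the nearest of the other 3 took up more of the range of its group than Dixon's 95% critical value. Over 48 combinations of an efflux pump or other named member with a group of 4, 7 were marked, and chance marks about 1 in 20. ABCG2 stood at 74.5 in M-BM 3, above the 54.7 to 57.3 of the other M-BM libraries. ABCC1 was at 39.7 in M-BM 2, below 54.7 to 55.2 in the others. In Lat 3, ABCC4 stood at 22.8, below 29.4 to 30.8 elsewhere in Lat, and ABCC5 at 16.8, below 32.0 to 32.6. ABCC5 reached 64.0 in S-BM 2, above 53.9 to 55.3. Low-level members gave the remaining marks, ABCC6 at 0.209 in Lat 4 against 0.0514 to 0.0554 and ABCB11 at 0.277 in Lat 2 against 0.139 to 0.155. Without Lat 3, ABCC5 was still called in Lat against S-BM (log2 fold change −0.80, adjusted p = 6.46e-05).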

How the results depend on the processing

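Called members of Lat against S-BM ranged from 21 to 24 with 1 library left out. In those fits 3350 to 3773 of all genes were higher and 3412 to 3792 lower, of 12959 to 13002 tested. With a filter of 10 in 4 libraries, which tests fewer genes, the called members came to 15 (8 higher, 7 lower of 22 tested). Under that filter 2917 genes were higher and 2837 lower of all 9646 tested. For M-BM against S-BM the counts with 1 library left out ran from 17 to 20, where 2827 to 3439 of all genes were higher and 2830 to 3463 lower. For M-BM against Lat the member counts ran from 0 to 1 (ABCA7 without M-BM 1, where 29 of all genes were higher and 31 lower). DESeq2 gave 2, ABCA7 at 0.92 and ABCG2 at −0.55 (adjusted p = 0.0472), and the cause was not tested. With the replicate number as a block, 23, 18 and 0 members were called in the 3 comparisons, which changed no call of a named member. Over all genes the block gave 3711 higher and 3705 lower in Lat against S-BM. It gave 3294 and 3225 in M-BM against S-BM, and 16 and 9 in M-BM against Lat. Member counts against S-BM with 1 library left out, with the block and in edgeR still hold the 5 members that had to differ. On recovered reads edgeR called 24, 19 and 0 members, and over all genes 3743 higher and 3727 lower in Lat against S-BM and 3318 and 3271 in M-BM against S-BM. In M-BM against Lat, limma called 14 genes higher and 13 lower, edgeR 12 and 5 and DESeq2 136 and 93. ABCG2 kept its direction and its call over all alternatives against S-BM, from 3.33 to 4.41 in Lat and 2.83 to 3.87 in M-BM, and against Lat ran from −0.66 to −0.45 in M-BM. Against Pa at 4-fold, 1 member was counted in M-BM, 2 in Lat and 0 in S-BM. Without S-BM 3 and S-BM 4, ABCG1 in Lat (−0.79) and ABCC4 in M-BM (0.93) were no longer called and ABCA7 in M-BM turned to 0.0501, uncalled. The other changes of sign were uncalled values near 0 in M-BM against Lat. ABCC10 ran between −0.046 and 0.062 with 1 library left out, and was −0.00595 with quantile normalization, −0.000850 in edgeR, −0.00899 in DESeq2 and −0.0252 with the closest pairs averaged. With 1 library left out, ABCC2 ran from −0.32 to 0.15, ABCC3 from −0.23 to 0.058 and ABCC5 from −0.25 to 0.061, and ABCC5 was 0.056 with the closest pairs averaged. Of the remaining single-member values 983 kept direction and side of the threshold. Under the filter of 10, ABCA1, ABCA7, ABCB1, ABCB11, ABCC3, ABCC6 and ABCG1 had no value. For low members the pseudocount sets the size, as for ABCB1 in Lat, from 0.38 to 4.46 over the alternatives. At 13.25 to 21.84 M reads, values under 0.136 to 0.225 stand for fewer than 3 reads.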
